A study of Mus musculus with 8 samples.

Results

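The genes described here are 10 genes of the cells that build brain blood vessels. They were chosen by symbol and not by a rule on measured values, though with earlier results of these data known. They are 6 endothelial genes (Cldn5, Flt1, Pecam1, Slc2a1, Slco1a4 and Abcb1a) and 4 genes of mural cells, the pericytes and smooth muscle cells that lie on the vessel wall (Pdgfrb, Rgs5, Vtn and Acta2), out of 55032 genes in the deposited count table. The striatum was taken from female C57BL/6 mice at postnatal day 60 (P60), and each mouse gave 1 RNA library. The 4 WT mice are named WT-1015, WT-1041, WT-1061 and WT-1063, and the 4 16p11.2+/- mice, which carry the chromosomal deletion on 1 of their 2 copies of the segment in every cell, are named DF-1018, DF-1037, DF-1059 and DF-1062. No other allele or agent is given for either group, and the dissected piece is whole tissue in which vessel cells are a minority. The comparison asks whether the RNA level of each member in striatum tissue differed between the genotypes, and how it varied from mouse to mouse.

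Endothelial cells of the brain form the blood-brain barrier. Tight junctions close the gaps between neighbouring cells, transporters carry glucose and other nutrients inwards, and efflux pumps return foreign compounds to the blood. Endothelial cells recruit pericytes with the growth factor PDGF-B, whose receptor sits on the mural cell, and smooth muscle cells around arterioles contract to set the blood flow.

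The promoters of 3 members are printed because these genes, with Pecam1, were each highest in the same mouse, DF-1037, as described later. They are the 250 bases before the RefSeq start of the gene (GRCm38.p6), 5′ to 3′ on the strand of the gene, at 16:18776597-18776846 (plus strand) for Cldn5, 5:147726012-147726261 (minus strand) for Flt1 and 19:34255374-34255623 (minus strand) for Acta2. Capitals mark GGAAG, the core bound by ETS factors, in Flt1, and in Acta2 they mark a CArG box, the site of serum response factor, with 1 C or G allowed in its A and T core.
Cldn5: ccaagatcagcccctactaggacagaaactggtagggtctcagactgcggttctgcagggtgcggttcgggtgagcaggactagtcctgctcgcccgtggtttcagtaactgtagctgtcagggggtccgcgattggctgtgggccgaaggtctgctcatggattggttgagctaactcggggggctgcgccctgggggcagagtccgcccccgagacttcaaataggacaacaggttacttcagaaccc
Flt1: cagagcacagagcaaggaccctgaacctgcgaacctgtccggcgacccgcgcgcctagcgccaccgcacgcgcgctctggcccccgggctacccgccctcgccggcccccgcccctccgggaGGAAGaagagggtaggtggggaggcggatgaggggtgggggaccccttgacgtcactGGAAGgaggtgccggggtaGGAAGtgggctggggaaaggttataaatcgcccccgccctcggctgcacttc
Acta2: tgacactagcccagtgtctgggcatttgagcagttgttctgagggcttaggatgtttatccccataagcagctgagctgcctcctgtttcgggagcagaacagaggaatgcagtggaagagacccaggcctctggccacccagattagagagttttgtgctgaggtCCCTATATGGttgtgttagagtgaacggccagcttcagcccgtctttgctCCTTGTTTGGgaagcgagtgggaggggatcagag
The Flt1 promoter held 3 GGAAG, with their first bases at 128, 71 and 52 bases before the start, and a TATAAA beginning 31 bases before it. GC made up 70.4% of its bases. Neither GGAAG nor TATAAA was found in that of Cldn5, which was 59.6% GC. In Acta2 the letters CCCTATATGG began 84 bases before the start and CCTTGTTTGG 34 bases before it, and the last G of the latter is also the first base of a GGAAG left in lower case. A further GGAAG lay upstream of both. Both strands were searched in 32851 mouse promoters of this length, of which 64.1% held GGAAG, 12.4% TATAAA, 1.47% a CArG box with A and T alone in its core and 8.59% one with 1 C or G allowed. The form that allows 1 C or G was chosen after the Acta2 sequence was seen, since none of the members with a matched promoter had the stricter one. Of the promoters not printed, that of Slco1a4 also held 1 CArG box of the looser form. Those of Slco1a4, Abcb1a and Vtn held GGAAG, and that of Vtn held TATAAA. Promoter sequences were matched for 8 of the 10 members. Those of Pecam1 and Pdgfrb were not used here. For Abcb1a and Slco1a4 the RefSeq start lies upstream of the gene start used for the position below. For Acta2, Slc2a1 and Vtn the RefSeq start lies downstream of that gene start. Part of their 250 bases, and most of those of Acta2, thus lies inside the gene as positioned below.

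At the level of the whole series, the reads assigned to genes numbered 15125051 to 16523429 per mouse, and the genotype labels were checked on 3 genes of the deleted segment. Taok2 had an FPKM (reads scaled to the length of the gene and to the total of the library) of 17.8 ± 0.902 (SD, 4 mice) in WT and 9.19 ± 0.424 (SD, 4 mice) in 16p11.2+/- striatum, a log2 fold change of -0.97 (standard error, SE, 0.07, edgeR, adjusted p = 0.000777). Mapk3 and Kctd13 were lower by -0.94 (SE 0.10) and -1.09 (SE 0.11), and for none of the 3 genes did the groups overlap. The pieces also differed in the tissue they held. A score of 8 thalamus genes (mean log2 CPM, the count scaled to library size) was 2.86 to 2.97 in WT-1015, WT-1041 and WT-1061 and 3.44 in DF-1059, against 5.41 to 6.24 in WT-1063, DF-1018, DF-1037 and DF-1062. A score of 10 medium spiny neuron genes, which mark striatum itself, was 8.23 to 8.97 in the 4 WT mice, 8.77 and 8.91 in DF-1059 and DF-1018, 6.91 in DF-1037 and 6.49 in DF-1062. Choroid plexus genes scored 7.09 in WT-1063 and 4.17 in WT-1015, and 0.332 to 2.63 in the other 6 mice. Cortical genes scored 5.5 in DF-1037, 5.31 in WT-1041, 5.1 in WT-1015 and 0.44 to 4.04 in the other mice. These values stand beside the results they touch, and fits with the thalamus, choroid plexus or haemoglobin score as a covariate are given in the closing section.

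All 10 members had enough counts to be tested. Of these, 0 passed edgeR's quasi-likelihood test at a p adjusted over all genes under 0.05, beside 0.109% of the 18294 genes tested (0.0929% called lower and 0.0164% called higher in 16p11.2+/- mice), and 0 had an unadjusted p under 0.05, beside 4.32%. DESeq2 and limma-voom also called 0. The FPKM ranges of the genotypes overlapped for every member, as they did for all but 2.83% of the genes tested. The log2 fold changes of 16p11.2+/- over WT lay between -0.18 for Slco1a4 and -0.0021 for Flt1, with a median of -0.07 against -0.0093 for all genes. All 10 were below 0, as were 51.8% of all genes tested, and 8 of the 10 were smaller than 1 SE. The 95% intervals, from -0.71 to 0.62 at their widest for Cldn5, stayed within a 2-fold change for all 10 members. As folds, they reached from 0.611 to 1.53 for Cldn5 and from 0.771 to 1.09 for Pdgfrb, the member with the smallest SE, and differences inside such an interval were not resolved with 4 mice per group. In tissue RNA, fewer cells of a type and less RNA per cell cannot be told apart.

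**Figure D1:**
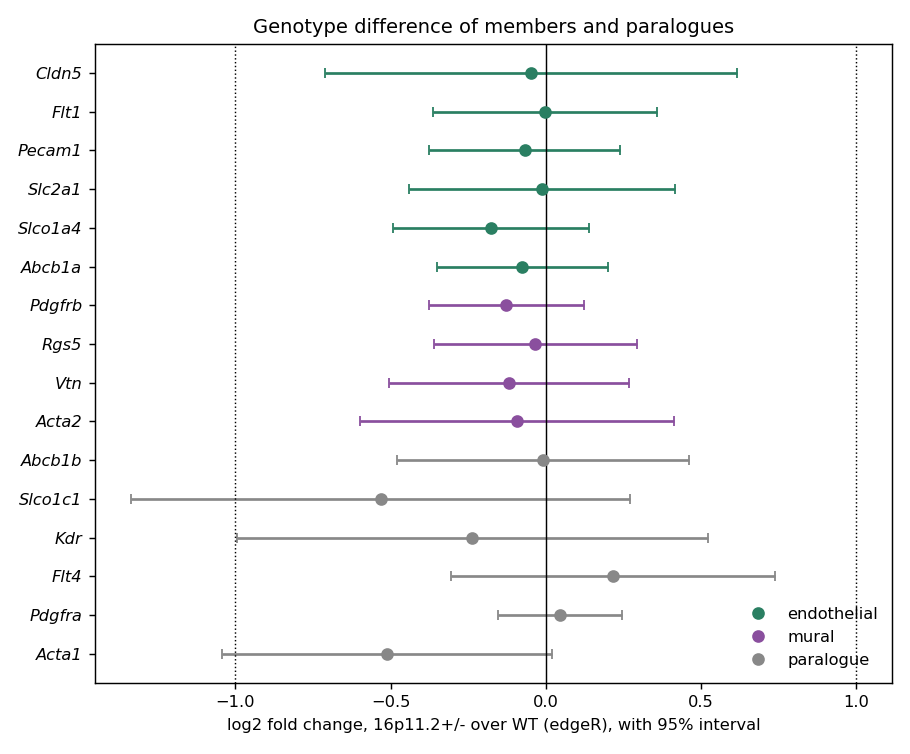
Log2 fold change (16p11.2+/- over WT, edgeR, horizontal axis) of the 10 members and of the tested paralogues, as points with 95% intervals. The solid line marks no difference and dotted lines mark a 2-fold change either way. Every interval of a member crosses 0, and the longest among the members is that of Cldn5, from -0.71 to 0.62, while those of the paralogues Slco1c1 and Kdr are longer.

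Cldn5 (ENSMUSG00000041378) encodes claudin-5, the main claudin of the endothelial tight junction, and lies at 16:18776847-18778262 on the plus strand (GENCODE M21, GRCm38, as all positions of genes here) as a single exon. Its FPKM was 9.01, 7.79, 9.09 and 9.13 in WT-1015, WT-1041, WT-1061 and WT-1063, and 6.30, 14.9, 5.60 and 7.61 in DF-1018, DF-1037, DF-1059 and DF-1062. The WT mice lay close together, while 3 of the 16p11.2+/- mice were below every WT mouse and DF-1037 was above all others. The mean FPKM was 8.76 ± 0.646 (SD, 4 mice) in WT and 8.61 ± 4.28 (SD, 4 mice) in 16p11.2+/- striatum (exact permutation p = 0.971). The log2 fold change was -0.05 (SE 0.29, edgeR, adjusted p = 0.974). One library decides this value. Without DF-1037 the mean of the other 3 16p11.2+/- mice was 6.50 ± 1.02 (SD, 3 mice), and the FPKM ranges of the groups no longer overlapped. The log2 fold change was then -0.45 (SE 0.14), which passed an unadjusted edgeR threshold of 0.05 but not the adjusted one (adjusted p = 0.822). The share of all genes that did so in this fit is not given here, so the result has no background beside it. DF-1037 had the highest cortex score, at 5.5, with a thalamus score of 6.19 and a medium spiny neuron score of 6.91. No other mouse was high in both the cortex and the thalamus score. WT-1041 and WT-1015 had cortex scores of 5.31 and 5.1, thalamus scores of 2.89 and 2.86, and a Cldn5 FPKM of 7.79 and 9.01. WT-1063 had a thalamus score of 6.24, a cortex score of 1.06 and a Cldn5 FPKM of 9.13. With the thalamus score as a covariate the log2 fold change was -0.33. The part of this mix of tissue in the Cldn5 level of DF-1037 was not tested. In the 4 mice of low thalamus score, a split made after the data were seen, the 16p11.2+/- side is DF-1059 alone, the lowest mouse for Cldn5, and the log2 fold change was -0.64 (SE 0.20; edgeR, adjusted p = 0.977), where the lone mouse is assumed to vary as the WT mice do.

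**Figure D2:**
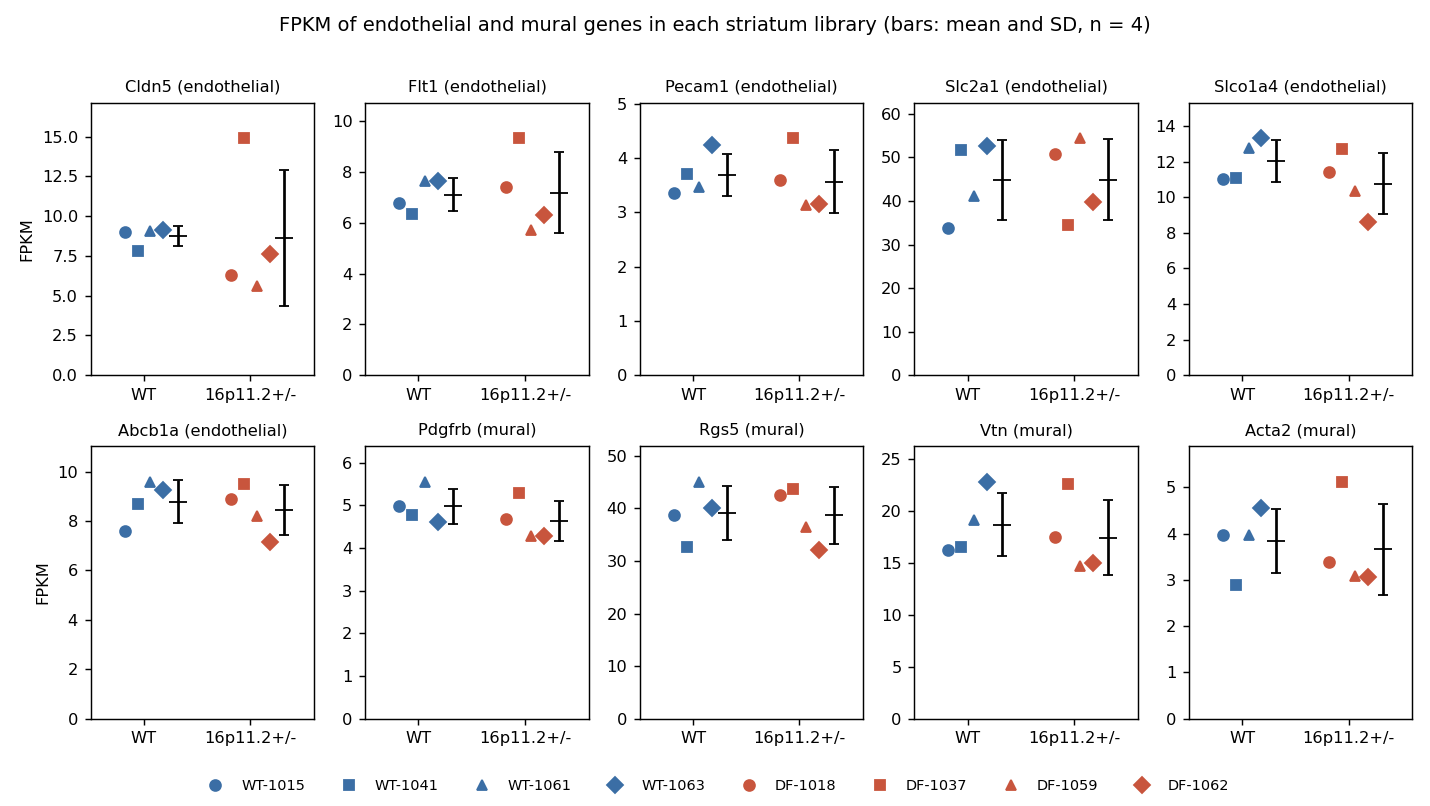
FPKM (vertical axes, from 0, 1 scale per gene) of the 10 members in each of the 8 striatum libraries, WT in blue and 16p11.2+/- in red, with 1 symbol per mouse and the mean and SD of 4 mice as black bars. The groups overlap in every panel, and for Cldn5 DF-1037 at 14.9 stands above 7 mice between 5.60 and 9.13.

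Pecam1 (ENSMUSG00000020717, 11:106654217-106750628, minus strand) encodes CD31, an adhesion molecule at the contacts between endothelial cells. It had an FPKM of 3.35, 3.70, 3.47 and 4.23 in the WT mice and 3.59, 4.36, 3.14 and 3.16 in the 16p11.2+/- mice, in the order given for Cldn5, which is kept from here on. DF-1037 and WT-1063 were the highest and DF-1059 and DF-1062 the lowest, so that the groups overlapped over most of their range. Means were 3.69 ± 0.389 (SD, 4 mice) in WT and 3.56 ± 0.572 (SD, 4 mice) in 16p11.2+/- mice (exact permutation p = 0.686), with a log2 fold change of -0.07 (SE 0.14). Flt1 (ENSMUSG00000029648, 5:147561604-147726011, minus strand) encodes VEGF receptor 1, which binds VEGF-A and limits its action on the main signalling receptor, Kdr. Its FPKM was 6.79, 6.34, 7.65 and 7.65 in WT and 7.41, 9.33, 5.70 and 6.31 in 16p11.2+/- mice. The 16p11.2+/- group held both the highest value, in DF-1037, and the lowest, in DF-1059. With means of 7.11 ± 0.657 (SD, 4 mice) and 7.19 ± 1.59 (SD, 4 mice), the log2 fold change of -0.0021 (SE 0.16, 95% interval -0.36 to 0.36) was the smallest of the members, and its sign turned under other scalings.

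Slc2a1 (ENSMUSG00000028645, 4:119108711-119137983, plus strand) encodes GLUT1, the transporter that brings glucose across the barrier, and it is made by astrocytes too. Its FPKM was 33.7, 51.8, 41.1 and 52.7 in WT and 50.9, 34.5, 54.4 and 39.8 in 16p11.2+/- mice. Within each genotype the mice fell into a higher and a lower pair, and the means were alike at 44.8 ± 9.10 (SD, 4 mice) and 44.9 ± 9.33 (SD, 4 mice; exact permutation p = 1). The log2 fold change was -0.01 (SE 0.19, 95% interval -0.44 to 0.42). Its order of mice was unlike that of the other endothelial members. DF-1037 was the highest 16p11.2+/- mouse for the other 9 members and the lowest of its genotype for Slc2a1, where WT-1015 was lower still. DF-1059, the lowest mouse of all for Cldn5 and Flt1, was the highest of all for Slc2a1. On the log2 CPM scale Slc2a1 lay 0.35 below the mean of the 8 mice in DF-1037 and 0.30 above it in DF-1059. An exon of Gm12868 on the opposite strand overlaps 2.99% of its exon sequence, and the strand setting of the counting is not given in the sources used here.

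Slco1a4 (ENSMUSG00000030237, 6:141805440-141856199, minus strand) encodes an organic anion transporter of the barrier. It had an FPKM of 11, 11.1, 12.7 and 13.3 in WT and 11.4, 12.7, 10.3 and 8.61 in 16p11.2+/- mice. DF-1059 and DF-1062 lay below every WT mouse and the other 16p11.2+/- mice within the WT range. The means of 12 ± 1.18 (SD, 4 mice) and 10.8 ± 1.73 (SD, 4 mice; exact permutation p = 0.257) gave the largest difference among the members, a log2 fold change of -0.18 (SE 0.14, 95% interval -0.49 to 0.14, edgeR, adjusted p = 0.859). Abcb1a (ENSMUSG00000040584, 5:8660077-8748575, plus strand) encodes the P-glycoprotein of the barrier, which pumps drugs back to the blood. Its FPKM was 7.60, 8.68, 9.60 and 9.26 in WT and 8.88, 9.51, 8.20 and 7.15 in 16p11.2+/- mice. Apart from DF-1062, the lowest, the 16p11.2+/- mice lay within the WT range. The means were 8.78 ± 0.875 (SD, 4 mice) and 8.44 ± 1.01 (SD, 4 mice; exact permutation p = 0.629), and the log2 fold change was -0.08 (SE 0.12). Of the 50-base stretches of Abcb1a transcripts, 17.6% also occur in other genes, mostly its paralogue Abcb1b, and 10.1% of its exon sequence overlaps Gm42686 on the opposite strand, so its counts may hold or miss reads of these. For each of the other members the stretches shared with other genes were at most 1.61%.

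Among the mural members, Pdgfrb (ENSMUSG00000024620, chromosome 18, 61045150 to 61085061, plus strand) encodes the receptor that pericytes use to respond to endothelial PDGF-B. Its FPKM was 4.98, 4.78, 5.56 and 4.62 in WT and 4.67, 5.28, 4.29 and 4.28 in 16p11.2+/- mice. DF-1059 and DF-1062 were lowest, below every WT mouse, and DF-1037 was higher than 3 of the WT mice. The means were 4.98 ± 0.411 (SD, 4 mice) and 4.63 ± 0.472 (SD, 4 mice; exact permutation p = 0.286), with a log2 fold change of -0.13 (SE 0.11, 95% interval -0.38 to 0.12). Rgs5 (ENSMUSG00000026678, 1:169655501-169695813, plus strand), a regulator of G protein signalling abundant in pericytes, had an FPKM of 38.7, 32.6, 45.1 and 40.1 in WT and 42.5, 43.7, 36.5 and 32.1 in 16p11.2+/- mice. Both genotypes spanned nearly the same range. Means of 39.1 ± 5.14 (SD, 4 mice) and 38.7 ± 5.43 (SD, 4 mice; exact permutation p = 0.943) gave a log2 fold change of -0.03 (SE 0.14).

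Vtn (ENSMUSG00000017344, 11:78499091-78502324, plus strand) encodes vitronectin, a matrix protein that brain pericytes secrete onto the vessel wall. Its FPKM was 16.2, 16.6, 19.1 and 22.8 in WT and 17.5, 22.6, 14.7 and 15 in 16p11.2+/- mice. WT-1063 and DF-1037 were alike and highest, and DF-1059 and DF-1062 were below every WT mouse. The means were 18.7 ± 3.05 (SD, 4 mice) and 17.4 ± 3.64 (SD, 4 mice; exact permutation p = 0.571), and the log2 fold change was -0.12 (SE 0.17, 95% interval -0.50 to 0.27). Acta2 (ENSMUSG00000035783, 19:34241090-34255590, minus strand) encodes the smooth muscle actin of arteriolar muscle. It had an FPKM of 3.97, 2.90, 3.97 and 4.55 in WT and 3.39, 5.12, 3.07 and 3.06 in 16p11.2+/- mice. DF-1037 stood apart from the other 16p11.2+/- mice, and without it the log2 fold change moved from -0.09 (SE 0.22) to -0.30 (SE 0.19; edgeR, adjusted p = 0.822). With all mice the means were 3.85 ± 0.691 (SD, 4 mice) and 3.66 ± 0.986 (SD, 4 mice; exact permutation p = 0.771). Acta2 was counted 79 to 140 times per mouse, the fewest of the members, and counting alone gives a coefficient of variation of 9.74% at this depth. The length behind its FPKM, 1781 bases, is shorter than the 2196 bases of its GENCODE M21 exons, so its level relative to other genes depends on the annotation used.

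Ordered by mean FPKM over the 8 mice, a scale on which genes can be compared because it is per length, Slc2a1 came first at 44.9 ± 8.53 (SD, 8 mice) and Rgs5 next at 38.9 ± 4.90 (SD, 8 mice). Their ranges overlapped, and Slc2a1 was the higher in 5 of 8 mice. Vtn followed at 18.1 ± 3.18 (SD, 8 mice), apart from both its neighbours with no overlap, and then Slco1a4 at 11.4 ± 1.53 (SD, 8 mice). Cldn5 (8.68 ± 2.84), Abcb1a (8.61 ± 0.896) and Flt1 (7.15 ± 1.13; SD, 8 mice each) came next and overlapped with each other, as Slco1a4 did with Cldn5. Abcb1a was above Flt1 in all 8 mice although their ranges overlapped. Pdgfrb at 4.81 ± 0.451 (SD, 8 mice) was below Flt1 with no overlap, and Acta2 (3.75 ± 0.795) and Pecam1 (3.63 ± 0.458; SD, 8 mice each) could not be ordered, with Acta2 the higher in 4 of 8 mice. The members thus ranked between the 47.2th and the 95.6th percentile of the genes tested, Pecam1 lowest and Slc2a1 highest.

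The spread between mice of the same genotype, given as the biological coefficient of variation that edgeR estimates, was 30.4% for Cldn5, 24.1% for Acta2 and 20.2% for Slc2a1, and 13.6% to 18.5% for the other 7 members. The median over all genes tested was 19.2%. In CPM the ratio of the highest to the lowest WT mouse was between 1.19 and 1.57 for the members. Among 16p11.2+/- mice it was 2.67 for Cldn5 and 1.31 to 1.78 for the others.

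Mice were also compared one by one in CPM with the scaling of the edgeR fit. DF-1037 was above the median of the 8 mice for 9 of 10 members, all but Slc2a1. It was the highest mouse for Cldn5, Flt1, Pecam1 and Acta2. WT-1063 was also above the median for 9 members, and DF-1018 and WT-1061 for 8 each. DF-1062 was above it for 0 members and on this scale the lowest mouse for 6, namely Pecam1, Slco1a4, Abcb1a, Pdgfrb, Rgs5 and Vtn. DF-1059 was above it for 1, WT-1041 for 2 and WT-1015 for 3. In FPKM the lowest mouse for Pecam1 and Vtn was DF-1059, at 3.14 against 3.16 and 14.7 against 15 in DF-1062. The median deviation of the members from their 8-mouse means was 0.23 on the log2 CPM scale in DF-1037 and -0.30 in DF-1062, so the highest and the lowest mouse carried the same genotype. Endothelial and mural members gave a similar median in each of these mice, 0.22 and 0.26 in DF-1037 and -0.26 and -0.34 in DF-1062. Both mice had a low medium spiny neuron score and a high thalamus score, and the part of the tissue held in the piece was not tested for these deviations.

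**Figure D3:**
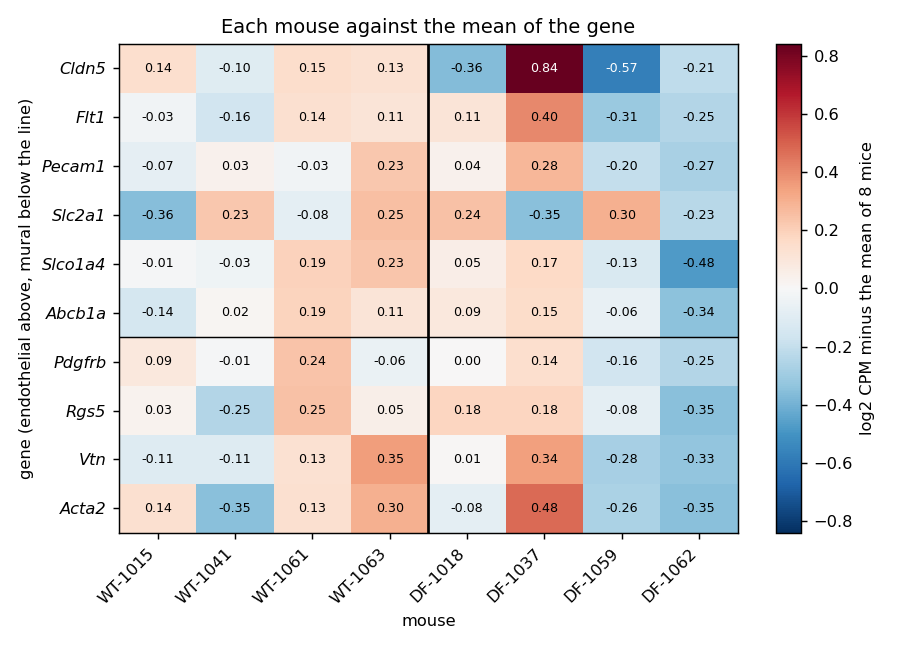
Log2 CPM of each member minus its mean over the 8 mice (red above, blue below, number in each cell), with mice in columns, WT left of the vertical line, and genes in rows. DF-1037 is red and DF-1062 blue in nearly every row, both being 16p11.2+/- mice, and the Slc2a1 row runs against the others in DF-1037 and DF-1059.

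Without DF-1062 the log2 fold changes of 7 of the 10 members turned positive, with a median of 0.02, and without DF-1037 the median was -0.19. Slco1a4, Pdgfrb and Vtn stayed negative with each mouse left out in turn, in the ranges -0.26 to -0.05, -0.20 to -0.06 and -0.27 to -0.01. The sign of the other 7 members turned in at least 1 of these fits.

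**Figure D4:**
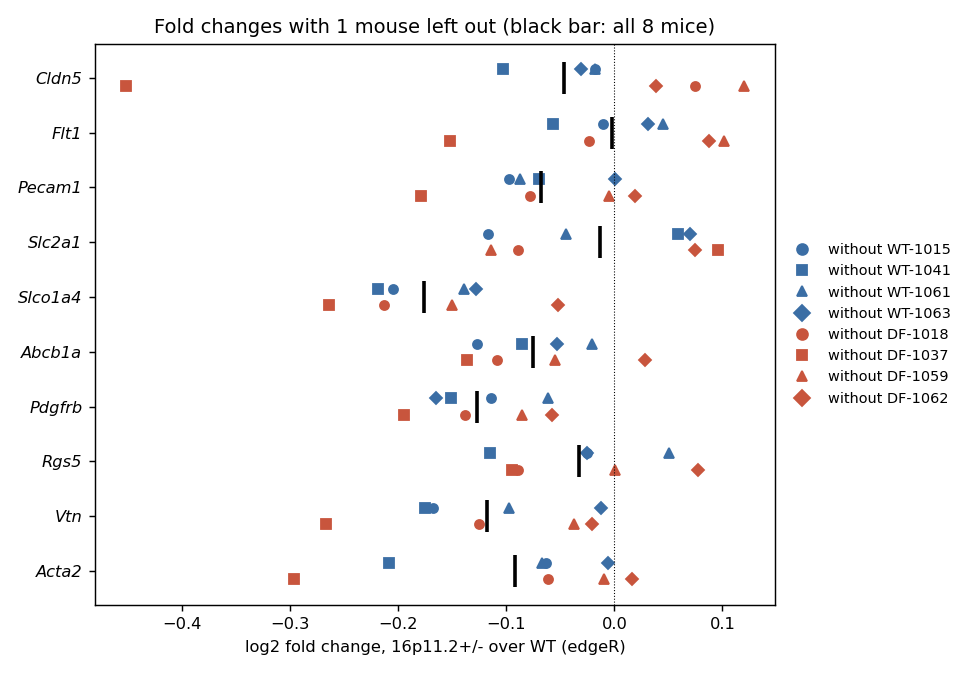
Log2 fold change (16p11.2+/- over WT, edgeR, horizontal axis) of each member with all 8 mice (black bars) and with 1 mouse left out (symbols, blue where a WT mouse and red where a 16p11.2+/- mouse was left out). The Cldn5 values run from -0.45 without DF-1037 to 0.12 without DF-1059, the widest range of the members.

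Of the 8 paralogues of the members, 6 were tested and 0 passed either threshold. Abcb1b, the other drug pump gene, had an FPKM of 0.461 ± 0.0507 (SD, 4 mice) in WT and 0.464 ± 0.10 (SD, 4 mice) in 16p11.2+/- mice, far below Abcb1a. Slco1c1, a thyroid hormone transporter of the barrier and of choroid plexus, had 26.7 in WT-1063, the mouse with the most choroid plexus RNA, and 9.38 to 11 in the other WT mice. Its log2 fold change was -0.53 (SE 0.35; edgeR, adjusted p = 0.859). Kdr, VEGF receptor 2, had a log2 fold change of -0.24 (SE 0.33), and Flt4, VEGF receptor 3, one of 0.22 (SE 0.23). Pdgfra, which in brain marks oligodendrocyte precursors rather than mural cells, had one of 0.05 (SE 0.09). Acta1, skeletal muscle actin, had the smallest unadjusted p of the paralogues, at a log2 fold change of -0.51 (SE 0.23; edgeR, adjusted p = 0.859; exact permutation p = 0.0571), on 27 to 52 counts per mouse. Actg2 and Actc1 had at most 5 and 3 counts and were not tested.

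Other genes of the vessel were read from lists that do not hold the members. Of 33 other endothelial genes, all tested, 0 passed the adjusted threshold and 0 had an unadjusted p under 0.05, with 16 positive and 17 negative log2 fold changes and a median of -0.01. The smallest p were those of Ocln, the tight junction protein occludin, at -0.53 (SE 0.27; edgeR, adjusted p = 0.859), Vwf, von Willebrand factor, at 0.35 (SE 0.20), and Abcc4, an efflux pump, at -0.23 (SE 0.15). Ocln had an FPKM of 6.53 in WT-1063 and 2.75 to 3.38 in the other WT mice, against 2.49 to 2.98 in 16p11.2+/- mice, so that WT-1063 stood apart from the other 7 mice. The highest levels in the list were those of Bsg, which is also made outside vessels and was 254 FPKM in WT-1063 and 117 to 134 in the other WT mice, of Ly6c1, at 25.9 ± 1.19 (SD, 4 mice) in WT and 27.4 ± 3.72 (SD, 4 mice) in 16p11.2+/- mice, and of Itm2a, at 24.8 ± 3.61 (SD, 4 mice) and 25.0 ± 3.41 (SD, 4 mice). WT-1063 was also the mouse with the highest choroid plexus score, and its part in the values of Ocln and Bsg was not tested.

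Of 13 pericyte genes, 0 passed either threshold, with 8 positive and 5 negative log2 fold changes and a median of 0.12. This median rested on single mice, at 0.01 without DF-1037, 0.07 without WT-1015, 0.08 without WT-1041 and 0.20 without WT-1063. Higd1b, a mitochondrial protein gene typical of brain pericytes, had an FPKM of 3.53 ± 0.352 (SD, 4 mice) in WT and 4.26 ± 0.454 (SD, 4 mice) in 16p11.2+/- mice and a log2 fold change of 0.25 (SE 0.17). Ndufa4l2 and Heyl were at 0.37 (SE 0.23) and 0.46 (SE 0.34). The best expressed were Mcam, an adhesion molecule, at -0.15 (SE 0.15), and Notch3, the mural Notch receptor, at 0.12 (SE 0.12). The 4 mural members had a median of -0.11, which was -0.23 without DF-1037 and -0.0018 without DF-1062, and neither median was read as a difference. Smooth muscle genes were sparse. Of 10 listed, 7 were tested, while Tagln, Cnn1 and Actg2 had too few counts, and 0 of the 7 passed either threshold, with a median of -0.09 that was 0.0018 without WT-1061 and -0.24 without WT-1041. Smtn and Mylk were at -0.29 (SE 0.22) and 0.36 (SE 0.29), Myl9 at -0.11 (SE 0.12) and Tpm2 at -0.09 (SE 0.31).

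Fibroblast genes, which mark the sheath of larger vessels and the meninges, leaned lower, with 8 of 10 tested genes negative and a median of -0.26, but 0 passed either threshold. WT-1063 was the mouse with the highest level for Lum, Mgp, Ogn and Islr, and for Ogn it reached 5.69 FPKM while WT-1015, WT-1041 and WT-1061 lay between 0.534 and 1.31. Without this mouse the list's median was 0.32. In the fibroblast list the score was 2.68 in WT-1063, 1.92 in DF-1037 and 0.912 to 1.40 in the other mice. Genes of haemoglobin and haem synthesis, which report red blood cells left in the tissue, were negative for 5 of 5 with a median of -0.25, and 0 passed either threshold. The median was -0.08 without WT-1061, -0.09 without WT-1063, -0.07 without DF-1062 and -0.39 without WT-1041. Their score was highest in WT-1061 and WT-1063, at 3.08 and 3.05, and lowest in DF-1062, at 2.20. Hbb-bs had an FPKM of 44.2 ± 12.3 (SD, 4 mice) in WT and 42.2 ± 6.96 (SD, 4 mice) in 16p11.2+/- mice, Hba-a1 had 21.0 ± 3.80 (SD, 4 mice) and 19.2 ± 2.67 (SD, 4 mice), and Hbb-bt had 11.9 ± 5.87 (SD, 4 mice) and 9.89 ± 2.90 (SD, 4 mice). Alas2 and Hba-a2, with at most 62 and 18 counts, were at -0.32 (SE 0.26) and -0.25 (SE 0.28). The globin genes are near-identical pairs, so their single values are uncertain.

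**Figure D5:**
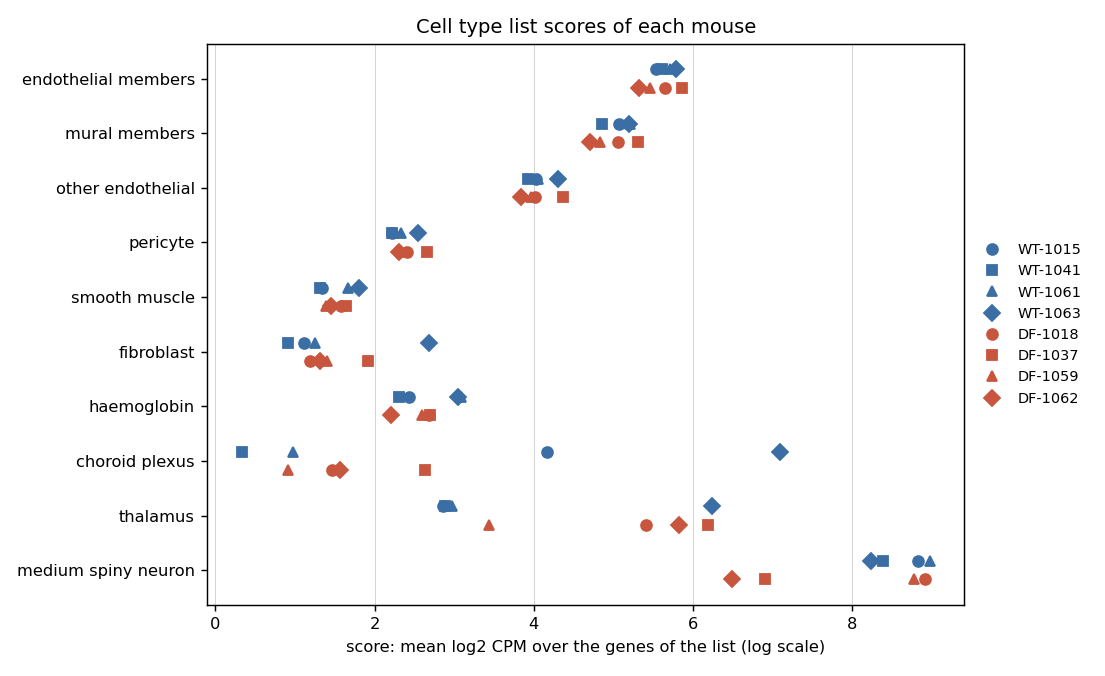
Score of each mouse (mean log2 CPM over a list, horizontal axis) for the members and 8 other lists in rows, WT in blue and 16p11.2+/- in red with 1 symbol per mouse. Endothelial members span 5.32 to 5.86 and mural members 4.71 to 5.31 with the genotypes interleaved, while the thalamus scores span 2.86 to 6.24 and the choroid plexus scores 0.332 to 7.09.

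Signals that act on vessels were measured through 24 genes of the VEGF, PDGF, angiopoietin, TGF-beta, Notch and Wnt pathways. Of these, 0 passed either threshold, with 14 positive and 10 negative log2 fold changes and a median of 0.01. Vegfa, the main growth factor for endothelium, had an FPKM of 20.9 ± 2.48 (SD, 4 mice) in WT and 21.4 ± 4.46 (SD, 4 mice) in 16p11.2+/- mice, a log2 fold change of 0.01 (SE 0.15). Vegfb and Tspan12, a partner of the Wnt receptor in vessels, were at 0.07 (SE 0.10) and 0.11 (SE 0.14). The smallest p of this list were those of the Wnt co-receptor Lrp6, at -0.26 (SE 0.13), of Notch1, at -0.14 (SE 0.07), and of Reck, a part of the Wnt7 receptor complex, at -0.26 (SE 0.14). All 3 had an adjusted edgeR p of 0.859.

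Markers of the other cells that share the piece were read beside the members. Microglia genes scored 4.57 to 5.05 in WT and 4.13 to 4.92 in 16p11.2+/- mice, and perivascular macrophage genes scored between -0.95 and 0.69, with Lyve1, Pf4 and Cbr2 below the counts needed for a test. Astrocyte genes, of which 8 of 8 were tested, scored 7.87 to 8.04 in WT and 7.85 to 8.10 in 16p11.2+/- mice, the smallest range of all these lists. Oligodendrocyte genes scored 9.05 to 9.37 in WT and 8.41 to 8.94 in 16p11.2+/- mice, with no overlap. Among the 6 of them, 0 passed the adjusted threshold and 5 had an unadjusted edgeR p under 0.05, beside 4.32% of all genes tested. This list was chosen with earlier results of these data known. For microglia, for oligodendrocytes and for both sets of members, DF-1062 was the mouse with the lowest score. The same held for the other endothelial, haemoglobin and medium spiny neuron lists. Each of the remaining lists had its lowest score in another mouse.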

How the data were processed

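Per the study's methods, the authors filtered the reads, mapped them to the mouse genome with Hisat2, extracted the raw count of each gene with Htseq-count and deposited these counts and the FPKM of each gene for each mouse. For 100% of the genes with a count, the deposited FPKM was checked to follow from the count, 1 length per gene and the library total, to within 0.1%. These lengths equal the exon lengths of GENCODE M21 (GRCm38) for 97.3% of 35149 genes compared, to within 0.5 bases, so positions were taken from it. The submitters' processing notes name Bowtie 0.12.2, mm8 and mm9, with no role given, while the annotation and the strand setting of the counting are not given in the sources used here. A deposited table of the authors' own comparison (group means, fold changes and p-values) and a summary of FPKM in bins were not used.

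Counts of 8 libraries, each from 1 mouse, were tested with the quasi-likelihood test of edgeR 4.0.16 (R 4.3.3) after TMM scaling. Its filterByExpr step, at a count of at least 10 and a total of at least 15, kept 18294 of 55032 genes. Every p was adjusted over all genes tested by the Benjamini-Hochberg method with 0.05 as the limit. Standard errors (SE) were derived from the fold change on the log2 scale and its F value. A negative log2 fold change stands for a lower level in 16p11.2+/- mice. FPKM was compared with two-sided exact permutation tests over the 70 assignments of 8 mice, for which the smallest p is 0.0286. Scores are the mean log2 CPM of a list with a prior count of 2. Pairs of libraries within a genotype had a chi-square per degree of freedom of 8.82 to 62.9, well above sampling noise, and were kept as separate samples. The labels give no batch.

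The members and the gene lists were chosen with earlier results of these data known. Genes named are the members, their paralogues, Taok2, Mapk3 and Kctd13, and in each list of other vessel genes the 3 with the smallest p and the 3 with the highest mean FPKM. Oligodendrocyte, microglia and other cell type lists are given as scores and counts. Other settings tried were RLE factors, library totals, no filter or 10 counts in every library, DESeq2 1.42.0, voom and, on log2 FPKM plus 1 or 0.1, the trend method of limma 3.58.1, the thalamus, choroid plexus and haemoglobin scores as covariates, and each mouse left out. The fit on the 4 libraries of low thalamus score was chosen after seeing the data. The code was tested on simulated data. Promoter sequences are those of RefSeq (GRCm38.p6).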

Additional observations from a re-analysis of the deposited data

Results flagged for a closer look

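In 3 results a single mouse was distant from its group, out of 40 groups of 4 values examined, of which chance alone picks about 1 in 20. The measure divides the distance to the closest value by the range of the 4 mice. For the FPKM of Cldn5 it was 0.911 in WT-1041, at 7.79 below the other WT mice at 9.01 to 9.13, in a group whose range is narrow. For the FPKM of Acta2 it was 0.840 in DF-1037, at 5.12 above the other 16p11.2+/- mice at 3.06 to 3.39, and the same mouse was the highest for Cldn5, Flt1 and Pecam1. For the thalamus score it was 0.967 in WT-1063, at 6.24 above the other WT mice at 2.86 to 2.97. In CPM WT-1063 was above the 8-mouse median for 9 of the 10 members.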

How the results depend on the processing

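The count of members past the adjusted threshold was 0 under each of the 20 alternatives. The ranges of the genotypes overlapped for all members with CPM in place of FPKM. With 1 mouse left out the number of members without overlap was 0 to 1 and that of members past an unadjusted p of 0.05 was 0 to 1, in both cases Cldn5 without DF-1037. Every member was read in each of these fits. The share of all genes without overlap or past the unadjusted threshold in them is not given here, so these counts have no background beside them. In the 4 libraries of low thalamus score 1 member, again Cldn5, passed the unadjusted threshold. Over all genes, 20 passed the adjusted threshold, 31 with DESeq2, 10 with the thalamus score as a covariate, 11 with the haemoglobin score, 3 in the 4 libraries of low thalamus score and 8 to 18 with 1 mouse left out. The cause of these shifts was not tested, except that the latter fits hold fewer mice.

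The sign of members close to 0 turned with the scaling. The log2 fold change of Flt1 was 0.0036 with RLE factors and with DESeq2, 0.016 with library totals, 0.052 with the choroid plexus score and 0.074 with the haemoglobin score. That of Slc2a1 was 0.0013 with library totals, 0.0010 on log2(FPKM + 1) and log2(FPKM + 0.1), 6.83e-05 with the thalamus score, 0.018 with the haemoglobin score and 0.35 in the 4 libraries of low thalamus score. With the choroid plexus score Cldn5 was at 0.037 and Acta2 at 0.042, and with the haemoglobin score Cldn5 was at 0.014, Acta2 at 0.017 and Rgs5 at 0.056. With the thalamus score as a covariate 9 of 10 members were negative and their median moved from -0.07 to -0.17, with Cldn5 at -0.33, Vtn at -0.31, Acta2 at -0.27, Slco1a4 at -0.25, Pecam1 at -0.20 and Flt1 at -0.15. In the 4 libraries of low thalamus score 9 of 10 were negative with a median of -0.22. With the haemoglobin score 5 of 10 were negative, and with the choroid plexus score 7 of 10 with a median of -0.02. With 1 mouse left out the log2 fold change ranged from -0.45 to 0.12 for Cldn5, -0.15 to 0.10 for Flt1, -0.18 to 0.019 for Pecam1, -0.12 to 0.10 for Slc2a1, -0.14 to 0.028 for Abcb1a, -0.12 to 0.078 for Rgs5 and -0.30 to 0.017 for Acta2. Slco1a4, Pdgfrb and Vtn were negative in all 20 alternatives. No paired analysis was possible because no animal number occurs in both genotypes. With 4 mice per group, differences inside the 95% intervals, from 0.611-fold to 1.53-fold at their widest, were not resolved, and Acta2 and Cldn5 rest on the fewest counts.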
